A study of Mus musculus with 8 samples.

Results

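The genes described here are 10 genes of the choroid plexus: Ttr, Folr1, Kl, Clic6, Kcnj13, Aqp1, Otx2, Kcne2, Slc4a5 and Sostdc1. They were chosen by name, with earlier results of these data known. Each is measured by 1 probe set that pairs with its symbol alone, out of 19938 genes so named. Gene expression was measured in whole brain lysates of untreated adult male mice aged 2 to 4 months. Of 8 biological replicates, 4 carry the label TNF-/-, with neither the allele nor the strain of these mice given in the labels. The other 4 carry the label TNF+/+ C57BL/6. Each replicate has an Affymetrix Mouse Gene 1.0 ST array of its own, which gives a log2 signal for each of 35556 probe sets. Whether each replicate is 1 mouse is not stated in the sources used here. The study asked how brain gene expression differs in mice that lack TNF, an inflammatory cytokine, and it also examined the barrier between blood and brain.

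The choroid plexus is a frond of epithelium and vessels that hangs into the brain ventricles and secretes cerebrospinal fluid. Its epithelial cells move sodium, bicarbonate, chloride and water from blood to fluid, release carrier and hormone proteins into that fluid, and are joined by tight junctions that form the barrier between blood and cerebrospinal fluid. The plexus is a small part of the brain, so in a whole brain lysate its transcripts stand for a few cells among many, and a small difference in dissection can change how much of it enters a sample. In such bulk samples fewer cells of a type and less RNA per cell cannot be told apart.

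Array medians lay between 5.03 and 5.11, and r between arrays, across probe sets, between 0.986 and 0.993. Signal of the targeted gene Tnf went against the labels: it was 5.67, 5.87, 5.92 and 6.21 in the arrays labelled TNF-/- and 4.48, 4.93, 4.24 and 4.47 in those labelled TNF+/+. The means were 1.39 ± 0.16 apart (SE; limma, adjusted p = 0.0278). Where its probes lie relative to the deleted part is unknown here, and a probe set outside that part checks nothing. Every direction below is that of arrays as labelled. TNF+/+ arrays 3 and 4 stood apart over all probe sets, with scores of 22.1 and 37.2 on the first principal component (24.0% of the variance) where the other 6 lay between -15.2 and -4.29. TNF+/+ array 1 had high signals of cerebellar granule cell genes (list mean 7.10, against 5.46 to 5.62 in the other 7 arrays).

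The label was checked against the signals themselves. Ttr, which encodes transthyretin, the thyroid hormone carrier that this epithelium secretes in bulk, had a mean signal above that of 99.4% of probe sets, and it was high on every array. The signals of 8 of the 10 genes were above their own array's median on 8 of 8 arrays, and those of Aqp1 and Slc4a5 were below it on all 8. Folr1, Kcne2 and Sostdc1 lay not far above it, with means above those of 53.9%, 54.4% and 56.4% of probe sets. Signals of different probe sets do not rank the genes' levels.

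The upstream sequences of 2 of the genes are shown because they encode potassium channel subunits of the same epithelium that behaved differently across these arrays, as given below. They are the 250 bases before the annotated start from RefSeq on build GRCm38.p6, written 5′ to 3′ on the gene's own strand. Capitals mark the letters TATAAA, the core of a TATA box. For Kcne2 the first of 2 annotated starts is shown. The Kcnj13 window is chr1:87394730-87394979 on the minus strand, and the Kcne2 window is chr16:92292139-92292388 on the plus strand.
Kcnj13: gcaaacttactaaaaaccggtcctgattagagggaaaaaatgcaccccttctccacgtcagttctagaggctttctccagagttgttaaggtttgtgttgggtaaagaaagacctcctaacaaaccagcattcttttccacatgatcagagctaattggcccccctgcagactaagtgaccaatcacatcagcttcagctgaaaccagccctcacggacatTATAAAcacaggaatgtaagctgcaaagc
Kcne2: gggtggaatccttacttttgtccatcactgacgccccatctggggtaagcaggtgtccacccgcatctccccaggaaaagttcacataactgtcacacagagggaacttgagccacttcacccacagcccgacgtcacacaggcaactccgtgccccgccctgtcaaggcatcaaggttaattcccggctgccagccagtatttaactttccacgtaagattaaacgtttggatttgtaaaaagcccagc

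In Kcnj13 the letters TATAAA begin 29 bases before the start, and the Kcne2 window holds none. The table of upstream windows has 10 for these genes, from 6 of them: Kcnj13, Kl, Aqp1, Slc4a5, Otx2 and Kcne2, of which Otx2 and Kcne2 have several starts. On either strand, TATAAA was found in 3 of the 10 windows, against 12.4% of 32851 windows of the same length, in Kcnj13, Otx2 and Slc4a5. TAATCC, the letters that homeodomain factors of the OTX type are known to prefer, was found in 1 of the 10 windows, one of those of Otx2, against 6.25% of all windows. In these windows 0 matches of one motif overlapped one of the other. Such a match is a description of letters and shows no binding, and the absence of one says only that the letters are not in that window.

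The secreted proteins and receptors come first. Ttr signal was 11.94, 11.71, 11.90 and 11.74 in TNF-/- arrays 1 to 4 and 11.57, 11.81, 11.87 and 11.79 in TNF+/+ arrays 1 to 4. The groups overlapped, with the highest value in TNF-/- array 1 and the lowest in TNF+/+ array 1. The means differed by 0.06 ± 0.08 (SE), with a 95% confidence interval of -0.13 to 0.25 (limma, adjusted p = 0.814).

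Folr1 encodes folate receptor alpha, which carries folate across this epithelium into the cerebrospinal fluid. Its signal was 5.35, 5.27, 5.49 and 5.36 in the arrays labelled TNF-/- and 5.25, 5.30, 5.55 and 5.31 in those labelled TNF+/+. Replicate 3 had the highest value in both groups, the groups overlapped, and the difference was 0.013 ± 0.081 (SE; limma, adjusted p = 0.965).

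Kl encodes klotho, a co-receptor for the hormone FGF23 whose extracellular part is shed into blood and cerebrospinal fluid; neurons also make some of it. Its signal was 6.50, 6.24, 6.34 and 6.13 in the arrays labelled TNF-/- and 5.75, 6.16, 6.20 and 6.09 in those labelled TNF+/+. Of the 10 genes it had the widest spread, 0.75 from the lowest array to the highest, or 1.68-fold. The value of TNF+/+ array 1 lay lowest, the value of TNF-/- array 4 lay among those of the TNF+/+ arrays, and the difference of 0.25 ± 0.12 (SE) had an interval of -0.013 to 0.52 (limma, adjusted p = 0.483). Without TNF+/+ array 1 it was 0.15.

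Sostdc1 encodes a secreted inhibitor of BMP and WNT signalling. Its signal was 5.50, 5.57, 5.69 and 5.50 in the arrays labelled TNF-/- and 5.37, 5.27, 5.78 and 5.79 in those labelled TNF+/+. The arrays labelled TNF-/- lay between a low pair, TNF+/+ arrays 1 and 2, and a high pair, TNF+/+ arrays 3 and 4. The difference of the means was 0.013 ± 0.128 (SE; limma, adjusted p = 0.978), and it was 0.25 without TNF+/+ arrays 3 and 4.

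Among the channels and transporters, Clic6 and Kcnj13 separated the groups. Clic6 encodes a chloride intracellular channel protein that is abundant in this epithelium. Its signal was 7.37, 7.50, 7.40 and 7.29 in the arrays labelled TNF-/- and 7.03, 7.10, 7.29 and 7.12 in those labelled TNF+/+. All 4 arrays labelled TNF-/- lay above all 4 labelled TNF+/+, though TNF-/- array 4 and TNF+/+ array 3 differ only beyond the second decimal. Without TNF+/+ arrays 3 and 4 the difference was 0.32. The difference was 0.25 ± 0.07 (SE), or 1.19-fold, with an interval of 0.087 to 0.42, and it did not pass over all probe sets (limma, adjusted p = 0.313; exact two-sided permutation p = 0.0286, the smallest that 4 against 4 can give).

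Kcnj13 encodes Kir7.1, an inward rectifier potassium channel of the apical membrane that faces the fluid. Its signal was 7.33, 7.22, 7.38 and 7.44 in the arrays labelled TNF-/- and 6.98, 7.02, 7.20 and 7.17 in those labelled TNF+/+. The groups did not overlap here either, with TNF-/- array 2 just above TNF+/+ array 3. The difference was 0.25 ± 0.07 (SE), or 1.19-fold, with an interval of 0.082 to 0.42 (limma, adjusted p = 0.324; exact two-sided permutation p = 0.0286). RefSeq places Kcnj13 within the bounds of another protein-coding gene, Gigyf2, and how the probe set separates them is unknown here. Without TNF+/+ arrays 3 and 4 the difference was 0.35.

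Kcne2 encodes an accessory subunit of the potassium channels of this epithelium. Its signal was 5.50, 5.54, 5.30 and 5.22 in the arrays labelled TNF-/- and 5.29, 5.30, 5.70 and 5.33 in those labelled TNF+/+. TNF+/+ array 3 stood well above the other 3 of its group, and the groups overlapped. The difference was -0.014 ± 0.114 (SE; limma, adjusted p = 0.972), and 0.08 without that array. Kcne2 and Clic6 lie on chromosome 16 with 5 protein-coding genes between them, one of which is Kcne1.

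Aqp1 encodes the water channel of the apical membrane. Its signal was 4.36, 4.22, 4.32 and 4.12 in the arrays labelled TNF-/- and 4.15, 4.02, 4.20 and 4.09 in those labelled TNF+/+. The groups overlapped through TNF-/- array 4, and the difference was 0.14 ± 0.07 (SE; limma, adjusted p = 0.513). Slc4a5 encodes a sodium bicarbonate cotransporter of the apical membrane.

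Slc4a5 signal was 4.50, 4.51, 4.55 and 4.53 in the arrays labelled TNF-/- and 4.36, 4.55, 4.71 and 4.47 in those labelled TNF+/+. The TNF-/- values lay inside the wider range of the other group, and the means differed by -0.0030 ± 0.0769 (SE; limma, adjusted p = 0.991). Both genes had signals below the array medians, which limits what these arrays can show of them.

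Otx2 encodes a homeodomain transcription factor that the choroid plexus needs to form and to keep its identity, and that retina and pineal gland also make. Its signal was 5.90, 5.86, 6.03 and 5.79 in the arrays labelled TNF-/- and 5.46, 5.91, 5.79 and 5.65 in those labelled TNF+/+. TNF+/+ array 1 had the lowest value and TNF+/+ array 2 reached the level of the TNF-/- arrays. The difference was 0.19 ± 0.10 (SE), with an interval of -0.035 to 0.42 (limma, adjusted p = 0.52), and 0.11 without TNF+/+ array 1.

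**Figure D1:**
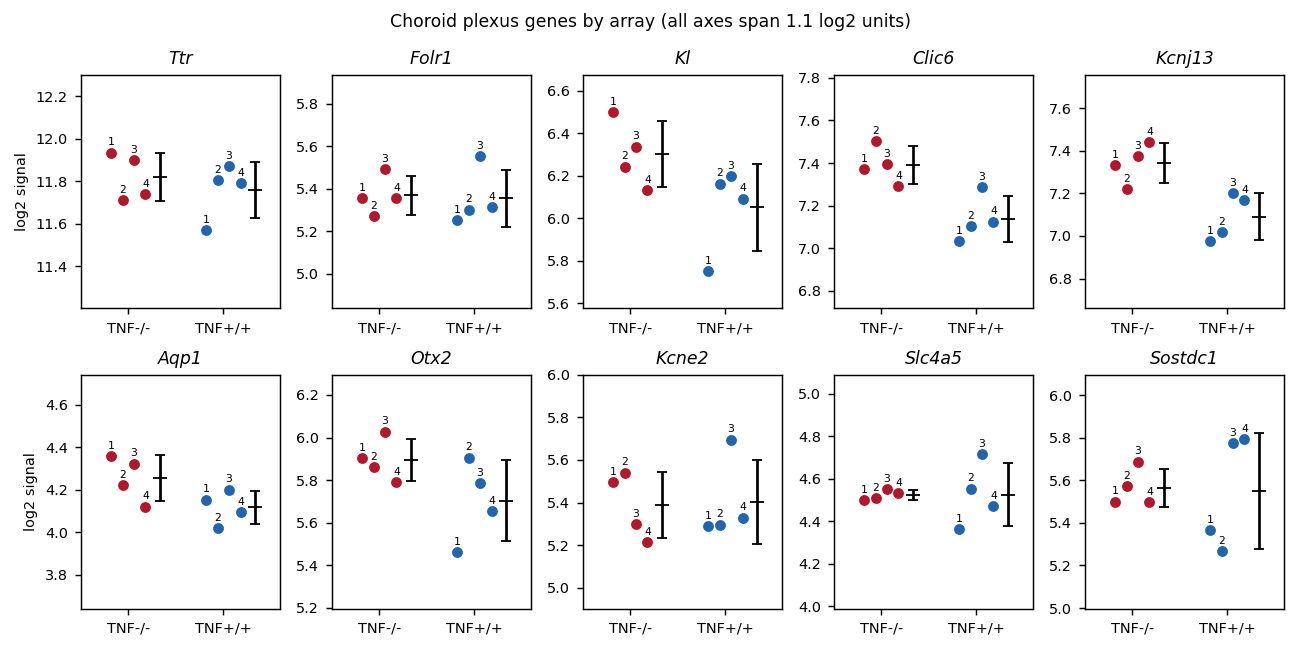
Log2 signal of the 10 choroid plexus genes on each array, with the replicate number above each point, TNF-/- arrays in red, TNF+/+ arrays in blue, and the mean ± SD (n = 4) as a bar beside each group; every axis spans 1.1 log2 units. The groups do not overlap for Clic6 and Kcnj13 and overlap for the other 8 genes, and TNF+/+ array 1 is the lowest point of 7 genes.

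Over the 10 genes, 0 passed limma at an adjusted p under 0.05, where 0.0816% of all probe sets passed (0.0366% with the TNF-/- mean above, 0.045% with it below). By SAM (significance analysis of microarrays), which the study used, 0 passed, where 0.149% of probe sets did. At an unadjusted p under 0.05, limma gave 2, both higher in the arrays labelled TNF-/-, where 5.92% of probe sets were higher and 10.8% differed in either direction at that level. The 2 are Clic6 and Kcnj13, and they are also the ones with no overlap, as were 3.15% of probe sets in that direction, 3.48% in the other and 6.63% in all. The difference was above 0 for 8 of the 10 genes, where 45.2% of all probe sets had one above 0. Its median over the 10 was 0.10, beside a median of -0.01 over all probe sets. After centring each array on its median, the difference was above 0 for 6 of the 10. The 10 signals come from the same 8 lysates, so their directions are not independent of each other.

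**Figure D2:**
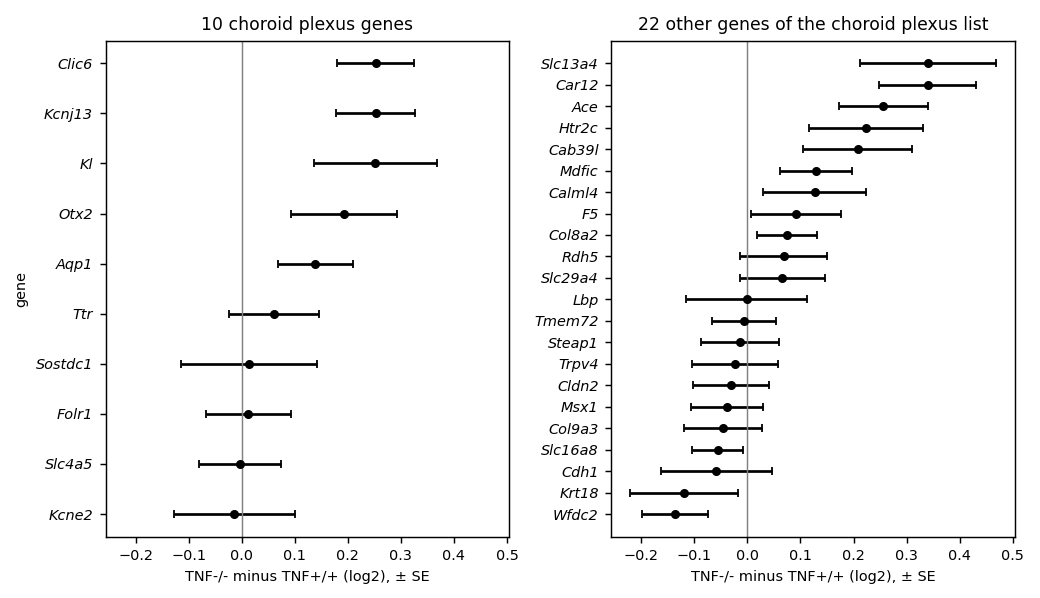
Difference of the means, TNF-/- minus TNF+/+ arrays, on the log2 scale with limma's standard error as a bar (n = 4 per group), for the 10 choroid plexus genes and for 22 other genes of a choroid plexus list. Clic6, Kcnj13 and Kl stand at 0.25 and Kcne2 and Slc4a5 just below 0, while the other list runs from -0.14 (Wfdc2) to 0.34 (Slc13a4 and Car12).

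How far the genes rose and fell together from array to array was examined next. The mean of the 10 signals was 6.42, 6.36, 6.44 and 6.31 in TNF-/- arrays 1 to 4 and 6.12, 6.24, 6.43 and 6.28 in TNF+/+ arrays 1 to 4. TNF-/- array 3, TNF+/+ array 3 and TNF-/- array 1 were highest, and TNF+/+ array 1 was lowest, with all 10 genes below their own 8-array means and 7 of the 10 at their lowest value. In TNF-/- array 3, 9 of the 10 genes were above their own means, and in TNF+/+ array 3, 8 were. The difference of the group means was 0.12, with a standard deviation between arrays of 0.098. Leaving out TNF+/+ array 1 gave 0.07. Leaving out TNF+/+ array 3 gave 0.17, and arrays 3 and 4 of that label together, 0.20.

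The spread differed between the genes. From the lowest to the highest array it was 1.68-fold for Kl, as above, 1.23-fold for Folr1, 1.26-fold for Aqp1, 1.28-fold for Slc4a5, 1.29-fold for Ttr, 1.38-fold for Clic6 and Kcnj13, 1.39-fold for Kcne2, 1.44-fold for Sostdc1 and 1.48-fold for Otx2. The standard deviation over the 8 arrays ran from 0.099 (Slc4a5) to 0.215 (Kl), beside a median of 0.130 over all probe sets. For Slc4a5, Folr1, Aqp1 and Ttr it was below that median, and for the other 6 genes above it, with that of Kl above 77.8% of probe sets.

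**Figure D3:**
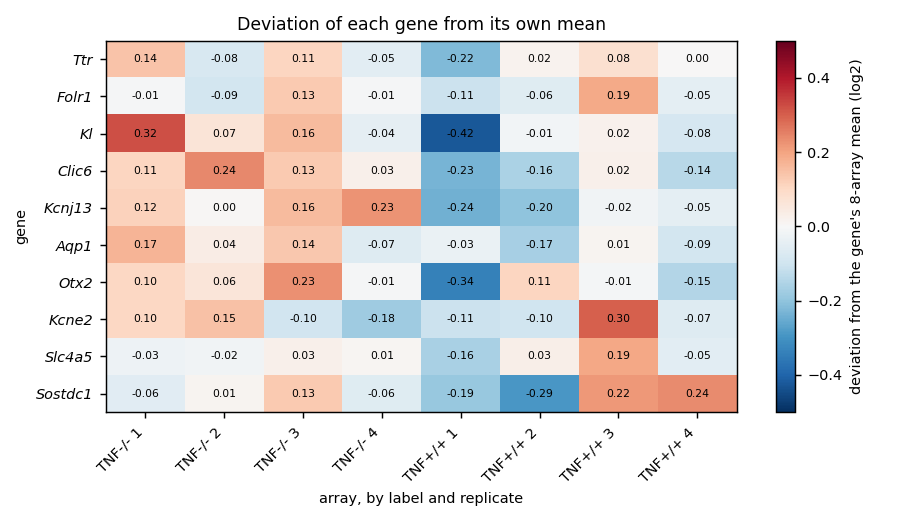
Deviation of each choroid plexus gene from its own mean over the 8 arrays, in log2 units, by array, red above and blue below the mean. The column of TNF+/+ array 1 is negative for all 10 genes, from -0.03 (Aqp1) to -0.42 (Kl), and TNF-/- array 3 is positive for all but Kcne2.

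Of the 45 pairs of genes, 45 had an r above 0 over the 8 arrays, with a median of 0.45 and a range of 0.0022 to 0.88. None passed after adjustment over the 45 pairs by Pearson's r (smallest adjusted exact permutation p = 0.138) or by Spearman's rho (0.412), and 6 and 5 had an unadjusted exact p under 0.05. With the group means removed, 45 pairs were again above 0, with a median of 0.49, which pools both labels and does not show that it held in each. Without the 2 arrays farthest from the median of the first gene of a pair, 38 of the 45 were above 0, with a median of 0.26. The shared direction rested in part on 1 array: without TNF+/+ array 1 the median r was 0.29.

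The closest pair was Ttr and Kl, with r = 0.88 and rho = 0.74 (exact permutation p = 0.00533 and 0.0458; adjusted p = 0.138 and 0.412; n = 8). Without the 2 arrays farthest from the median of Ttr, r was 0.45. Kl and Otx2 gave r = 0.87 and rho = 0.76 (exact permutation p = 0.00918 and 0.0368; adjusted p = 0.138 and 0.412), and r = 0.86 without the 2 arrays farthest from the median of Kl or 0.63 without those of Otx2. Folr1 and Slc4a5 gave r = 0.82 and rho = 0.64 (exact permutation p = 0.0065 and 0.0962; adjusted p = 0.138 and 0.47), and r = 0.58 without the 2 farthest of Folr1 or 0.44 without those of Slc4a5. Ttr, Kl and Otx2, the genes of a carrier, a hormone co-receptor and a transcription factor, were all lowest in TNF+/+ array 1.

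The loosest pair was that of the potassium channel subunit genes whose upstream sequences are printed above, Kcnj13 and Kcne2, with r = 0.0022 and rho = 0.00 (exact permutation p = 0.996 and 1). Kcnj13 was highest in TNF-/- array 4, where Kcne2 was lowest. Clic6 and Kcnj13, the 2 genes that separated the groups, had r = 0.71 and rho = 0.79 over all arrays (exact permutation p = 0.05 and 0.0279; adjusted p = 0.321 and 0.412). With the group means removed their r was 0.11: among the arrays labelled TNF-/-, Clic6 was highest in array 2, where Kcnj13 was lowest. Clic6 and Kcne2, from the same stretch of chromosome 16, had r = 0.45 over all arrays and 0.88 with the group means removed.

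**Figure D4:**
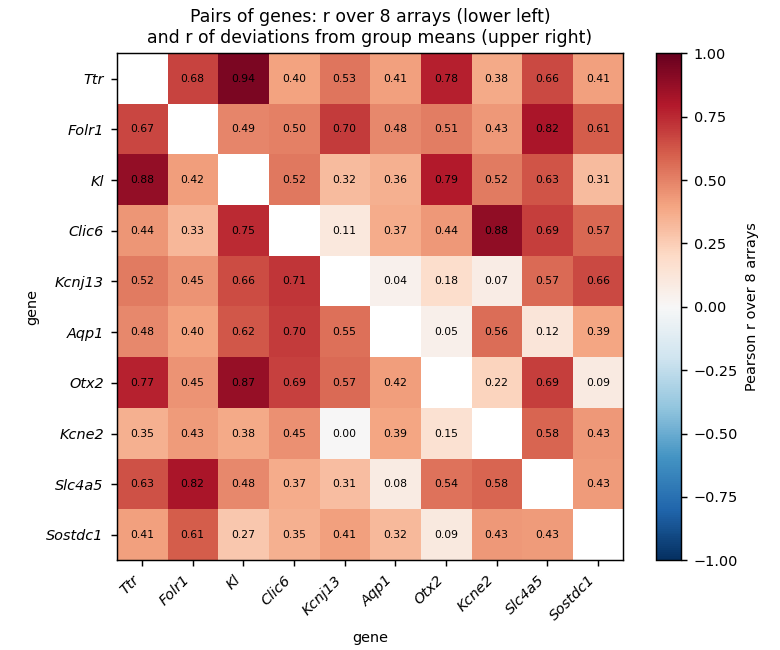
Pearson's r over 8 arrays for the 45 pairs of choroid plexus genes, with r of the signals in the lower left and r of deviations from the group means in the upper right, from -1 (blue) to 1 (red). All 45 values are above 0 on either side of the diagonal, highest for Ttr and Kl (0.88 and 0.94) and near 0 for Kcnj13 and Kcne2 (0.0022 and 0.07).

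Each gene was also set against the mean of the other 9, as a description over the same 8 arrays. The r was 0.83 for Kl, 0.80 for Ttr, 0.76 for Clic6, 0.69 for Otx2, 0.67 for Folr1, 0.64 for Kcnj13, 0.63 for Slc4a5 and Aqp1, 0.46 for Sostdc1 and 0.44 for Kcne2. Sostdc1 and Kcne2 had the lowest values, and no test was made of the order. Per log2 unit of that mean, Kl moved by 1.74 units and Slc4a5 by 0.54, the steepest and the flattest of the 10. For scale, r with the mean of all 10 had a 90th percentile of 0.55 over the 19928 other genes. The values of Sostdc1 and Kcne2 lay below that.

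A second list of genes of this epithelium, not used to choose the 10, gave 22 measured genes of 25. None passed over all probe sets, 3 were higher and 0 lower at an unadjusted p under 0.05 (limma; 5.92% and 4.9% of probe sets), and the median difference was 0.03. Car12, which encodes a membrane carbonic anhydrase, stood at 0.34 ± 0.09 (SE), Ace, which encodes angiotensin-converting enzyme, at 0.26 ± 0.08, and Slc13a4, which encodes a sulfate transporter, at 0.34 ± 0.13 (limma, adjusted p = 0.284, 0.361 and 0.407). The groups did not overlap for 2 genes of the list that were higher and 1 that was lower (3.15% and 3.48% of all probe sets). The lower one was the secreted-protein gene Wfdc2, at -0.14 ± 0.06. Htr2c, the gene of a serotonin receptor that neurons also make, was at 0.22 ± 0.11. The claudin gene Cldn2, a tight junction gene of this barrier, was at -0.03 ± 0.07, with a signal below the array median on all arrays. Means of 14 of the 22 lay below the array medians.

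The mean of these 22 genes followed the mean of the 10 closely, with r = 0.96 and rho = 0.98 over 8 arrays, r = 0.92 without the 2 arrays farthest from the median of the 10, and r = 0.95 with the group means removed. This is a relation of the means: of the single genes 17 of 22 had an r above 0 with the mean of the 10, the median was 0.24, and Wfdc2 (-0.58) and Slc16a8 (-0.48) ran against it. No p is given for these means, since the members were chosen with earlier results known. The list mean ran from 5.12 in TNF+/+ array 1, the lowest, to 5.25 in TNF-/- array 3, the highest. With this list mean as a covariate, the differences of the 10 genes ran from -0.25 (Kcne2) to 0.17 (Kcnj13), with 5 above 0. Clic6 was then at 0.12 and Kl at 0.04, and limma passed none (adjusted p = 0.466 to 0.946). Few arrays of the 2 labels shared a level of the second list. Its mean was at least 5.21 on every TNF-/- array, but 5.12, 5.15 and 5.15 on TNF+/+ arrays 1, 2 and 4. Only TNF+/+ array 3, at 5.23, fell among the TNF-/- values. With so little overlap, this fit cannot decide what the differences are at equal levels of the list.

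A list of ion transport genes that the epithelium shares with other brain cells was taken next. Of 13 measured genes of 15, 0 passed, 0 had an unadjusted p under 0.05, and the median difference was -0.05. Car2, which encodes the cytosolic carbonic anhydrase also made by oligodendrocytes, was at 0.16 ± 0.08 (SE), Car14 at -0.31 ± 0.15 and the anion exchanger gene Slc4a2 at -0.19 ± 0.09. Slc12a2, which encodes the cotransporter NKCC1 of the apical membrane, was at -0.13 ± 0.06, with no overlap of the groups. In this list 2 of the 13 genes were lower without overlap and 0 were higher, where 3.48% and 3.15% of all probe sets were. The relation of the mean of these genes to that of the 10 had no steady sign: r = -0.25 and rho = -0.21 over 8 arrays, r = -0.36 without the 2 farthest arrays, and r = 0.38 with the group means removed.

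Markers of cells that lie beside the choroid plexus were set beside it in the same way. For ependyma, the ciliated lining of the ventricles, the mean of 14 genes had r = 0.93 and rho = 0.90 with the mean of the 10 (r = 0.82 without the 2 farthest arrays and 0.90 with the group means removed). It ran from 4.37 in TNF+/+ array 1 to 4.53 in TNF-/- array 1, and the groups overlapped (TNF-/- from 4.47, TNF+/+ up to 4.52). Among these genes 2 were higher at an unadjusted p under 0.05 by limma and 0 lower (5.92% and 4.9% of all probe sets). They were the dynein gene Dnah6 at 0.40 ± 0.12 (SE) and the adenylate kinase gene Ak7 at 0.30 ± 0.11. Rsph1, not under that level, was at 0.13 ± 0.07. The difference was below 0 for 5 of the 14, among them Cfap43 at -0.21 ± 0.10 and Foxj1, the transcription factor gene that defines these cells, at -0.11 ± 0.07. Foxj1, below the array median on all arrays, ran against the 10 genes (r = -0.76), and the r of 12 of the 14 was above 0. Means of 13 of the 14 lay below the array medians.

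Meningeal fibroblast genes, which also mark the stroma of the plexus, had an r of 0.70 and a rho of 0.60 (r = 0.60 without the 2 farthest arrays and 0.53 with the group means removed). Their mean did not overlap between the groups (TNF-/-, 6.15 to 6.18, and TNF+/+, 5.86 to 6.04). All 14 members had a difference above 0, with a median of 0.22, where 45.2% of all probe sets had one above 0. At an unadjusted p under 0.05 by limma, 5 were higher (5.92% of all probe sets), 0 were lower (4.9%), and 0 passed over all probe sets. Slc6a20a, a transporter gene for proline, was at 0.41 ± 0.09 (SE), the GABA and taurine transporter gene Slc6a13 at 0.33 ± 0.10 and the proteoglycan gene Lum, below the array median throughout, at 0.21 ± 0.06. The part of these cells in the values of Clic6 and Kcnj13, which separated the groups in the same direction, was not tested.

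A list of 6 genes was taken for vessels with pores, as in the plexus, though not all of them mark such vessels alone. At an unadjusted p under 0.05 by limma, 2 were higher (5.92% of all probe sets), 0 were lower (4.9%), and 0 passed after adjustment. Their mean did not overlap between the groups either (TNF-/-, 6.59 to 6.79; TNF+/+, 6.51 to 6.55), and its relation to the 10 genes was weaker in value, with no test of that difference (r = 0.46, rho = 0.62; r = -0.04 without the 2 farthest arrays and 0.02 with the group means removed). Nrp1 was at 0.34 ± 0.12 (SE), Ehd4 at 0.36 ± 0.14 and Plvap, the gene of the protein that spans the pores, at 0.15 ± 0.07. Nrp1 and Ehd4, the 2 with an unadjusted limma p under 0.05, are also made by other cells. Of the 6 genes, 0 separated the groups by themselves, so the list mean is no measure of vessels with pores alone.

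Genes of structures that could enter a brain piece and that could carry some of the same transcripts were dim. All 7 measured pineal gland genes had means below the array medians, and 0 had an unadjusted p under 0.05 (limma). Their list mean did not overlap between the groups (TNF-/-, 3.99 to 4.03, and TNF+/+, 4.04 to 4.08), and all 7 differences were below 0. A list mean of dim signals thus separated the labels too. The lowest p values were those of Drd4 (-0.06), Gngt1 (-0.06) and Sag (-0.06), and the list had r = -0.20 and rho = -0.24 with the 10 genes (r = -0.03 without the 2 farthest arrays). With the group means removed its r was 0.67, of the opposite sign, for signals this dim. All 6 measured pituitary genes were likewise dim, with list means of 3.88 to 3.96. At an unadjusted p under 0.05 by limma, 1 was lower (4.9% of all probe sets), Prl at -0.15, with Tshb at -0.12 and Cga at 0.09. The list had r = -0.08 and rho = 0.14 (r = -0.07 without the 2 farthest arrays and 0.11 with the group means removed).

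Cerebellar granule cell genes had r = -0.75 and rho = -0.50 with the 10 genes, with r = -0.72 after removal of the group means and 0.01 without the 2 farthest arrays, so the relation rested on TNF+/+ array 1. In that array cerebellar signal was highest and choroid plexus and ependymal signal lowest, and the part of this in the values of the 10 genes was not tested. Among these 8 genes 0 had an unadjusted p under 0.05, with Fat2 at -0.52 ± 0.32 (SE), Gabra6 at -1.07 ± 0.84 and Zic2 at -0.14 ± 0.13. Genes of habenula and thalamus, which border the third ventricle, gave 1 higher and 1 lower of 10 at that level (5.92% and 4.9% of all probe sets). They were Rora at 0.14 and Nwd2 at -0.32, with Prkcd at -0.13. The list had r = -0.26 and rho = -0.40 (r = -0.31 without the 2 farthest arrays and 0.02 with the group means removed). Blood cell genes gave 0 higher and 1 lower of 4 measured (5.92% and 4.9% of all probe sets), Slc4a1 at -0.19, with Alas2 at -0.43 and S100a9 at -0.13. All 4 had means below the array medians. The list had r = -0.48 and rho = -0.33 (r = 0.07 without the 2 farthest arrays and -0.09 with the group means removed).

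**Figure D5:**
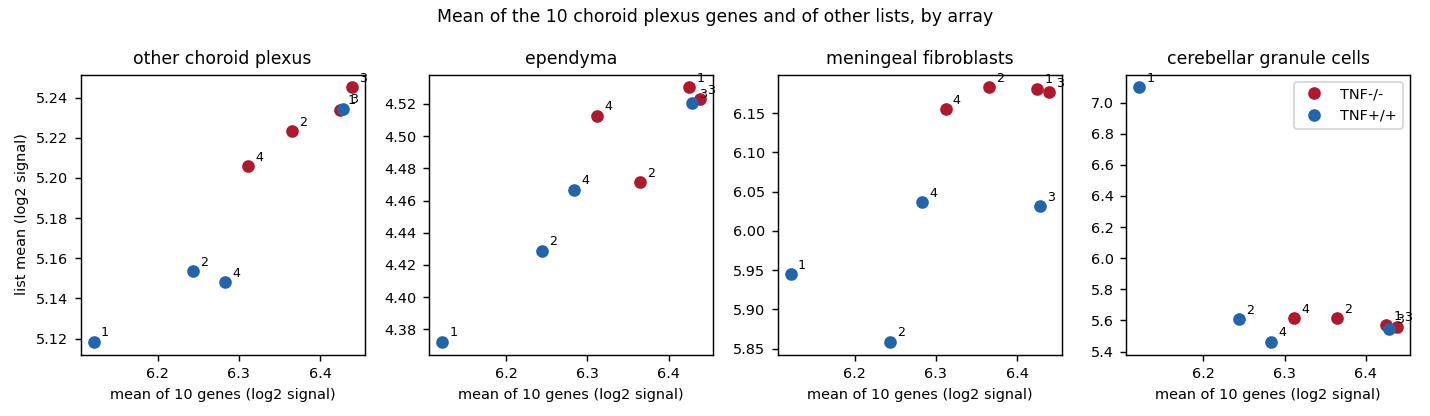
Mean log2 signal of the 10 choroid plexus genes (horizontal axis) against the mean of 4 other gene lists (vertical axis) on each array, with replicate numbers beside the points, TNF-/- arrays in red and TNF+/+ arrays in blue. The other choroid plexus list and ependyma rise with the 10 genes (r = 0.96 and 0.93), meningeal fibroblasts also split by label, and TNF+/+ array 1 stands alone for cerebellar granule cells.

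The 12 genes whose pattern over the 8 arrays was most like the mean of the 10 were drawn from 1758 genes with a mean signal above the median of all probe sets and a standard deviation of at least 0.2. The closest was Ezr, which encodes ezrin, a link between membrane and actin in microvilli, with r = 0.96. Next were Ston2, an endocytosis adaptor gene (0.92), Prelp, a matrix proteoglycan gene (0.91), Znrd1as (0.90), and the growth factor gene Igf2, also on the meningeal list (0.90). Itih3 (0.89), Dlk1 (0.89), Cabp7 (0.88), the sulfate transporter gene Slc26a2 (0.86), the thrombomodulin gene Thbd (0.86), Mras (0.85) and Baiap3 (0.85) followed. All 12 had their lowest value in TNF+/+ array 1, where the mean of the 10 was also lowest. Their r without that array was not examined, so how far the ranking rests on it is not known. Over all 19928 other genes the median r was 0.06, and 1.14% had an r above 0.8. Of the 12, Itih3 (0.71 ± 0.19, SE) and Cabp7 (0.42 ± 0.10) were higher in the arrays labelled TNF-/- without overlap, as were 3.15% of all probe sets. Neither passed (limma, adjusted p = 0.284 and 0.247). The 12 were picked for likeness to a mean that was itself 0.12 higher in those arrays, so their direction is no separate finding.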

How the data were processed

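The authors deposited log2 signals per probe set; per the submitters' processing notes the tools were GCOS, GCRMA and Partek, without roles or versions, and the scale follows from the values (2.83 to 14.1). Build and remaining steps are not given in the sources used here. Values were used as deposited, all 35556 probe sets were tested, and 0 columns of values were left unused. Titles gave each array's group and number. Gene names came from the platform's annotation, in which 21789 probe sets have 1 symbol, 1621 have several and 12146 are not listed. Each gene is its brightest probe set; all 10 genes matched RefSeq (GRCm38.p6) by gene ID.

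Tests between the groups used lmFit and eBayes of limma 3.58.1 (R 4.3.3), two-sided, with p-values adjusted by Benjamini-Hochberg over the whole table; differences are TNF-/- minus TNF+/+ arrays and errors are moderated standard errors. SAM was rebuilt over the 70 possible assignments, with a fudge constant s0 of 0.0357 and an estimated false discovery rate of 4.49%. Correlations used all 40320 orders of the 8 arrays. On simulated data made for this comparison (35556 probe sets), a change of 0.5 was found by limma in 41% of the probe sets that had it, and a change of 1 in 79%. Nothing states more about the replicates than that they are biological, so p-values measure the spread between these samples. The number of arrays, 4 per group, limits precision.

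The members and lists were chosen with earlier results of these data known. Named genes are the 10, Tnf, the 5 genes of the other choroid plexus list and 3 of each further list with the smallest p, and the 12 genes most like the mean of the 10. Cldn2, Foxj1, Slc12a2, Cfap43 and Slc16a8 were named after their values were seen. Alternatives were other scalings, filters, variance models, array weights, a covariate, a replicate block and leaving out arrays. Plots used matplotlib 3.10.9 in Python 3.11.15.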

Additional observations from a re-analysis of the deposited data

Results flagged for a closer look

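Among 42 sets of 4 arrays (the 10 genes and the list means, per label), 2 had a highest or lowest array far from its nearest neighbour, and chance gives about 2. Kcne2 was 5.70 in TNF+/+ array 3, against 5.29 to 5.33 in the other arrays of that label. The mean of the cerebellar granule cell list was 7.10 in TNF+/+ array 1, against 5.46 to 5.61 in the others. The same TNF+/+ array 1 had the lowest mean of the 10 choroid plexus genes, 6.12.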

How the results depend on the processing

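The number of the 10 genes passing stayed at 0 under all alternatives run, at 0 to 4 with an unadjusted p under 0.05; the highest count was without TNF-/- array 4 and the lowest with the other choroid plexus list as a covariate. The mean difference of the 10 stayed above 0 (0.07 to 0.17 with 1 array left out), and the median r of pairs ran from 0.29 to 0.54. Clic6, Kcnj13, Kl, Otx2 and Aqp1 kept their direction in each fit that held them. The other 5 have differences near 0 and turned sign, the cause of which was not tested. Centring gave Folr1 -0.0058 and Sostdc1 -0.0055. Quantile normalization gave Folr1 -0.0089, Sostdc1 -0.016 and Slc4a5 0.018. The covariate, whose levels overlapped little between the labels, gave Ttr -0.092, Folr1 -0.16 and Sostdc1 -0.19. Without TNF+/+ arrays 3 and 4, Kcne2 was 0.10 and Slc4a5 0.064. With 1 array left out, ranges were -0.0028 to 0.098 (Ttr), -0.028 to 0.078 (Folr1), -0.081 to 0.094 (Sostdc1), -0.057 to 0.060 (Slc4a5) and -0.065 to 0.084 (Kcne2). With list means, chosen after seeing the data, the ependyma difference was 0.06 and 0.04 without TNF+/+ array 1 (0.11 without TNF+/+ arrays 3 and 4), and the meningeal one 0.21 and 0.27 without TNF+/+ arrays 3 and 4. With the replicate number as a block, 0 genes passed and the mean difference was again 0.12. Deviations of same-number arrays had r of 0.07, 0.11, 0.10 and 0.07, not all over 0.1, so the numbers were not taken as pairs. That 3 of the 4 TNF-/- arrays were closest to their own number is a hint of pairing from the data, not from the design. Signals below the array medians limit what is measured of Aqp1 and Slc4a5.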
